A study of Mus musculus with 5 samples.

Results

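The 10 genes Abcb1a, Abcb1b, Abcg2, Abcc4, Slco1a4, Slco1c1, Slc2a1, Mfsd2a, Slc7a5 and Slc16a1 encode efflux pumps and uptake carriers of the blood-brain barrier (BBB). They were taken as a fixed list by their mouse symbols, but the list was chosen with earlier results of these data known. All 10 were found among the 55573 genes of the count tables. Bulk RNA sequencing of the right hemisphere was available for 3 vehicle-treated and 2 UMBO-treated (ultrasound-mediated BBB opening) mice. All of the mice were C57BL/6 females inoculated at 7 to 8 weeks of age in the right caudate-putamen with GL261, a mouse glioma line carrying luciferase and mKate2, and all had passed a bioluminescence minimum. The vehicle mice received an antibody dilution buffer. The UMBO mice received low-intensity pulsed ultrasound with intravenous microbubbles. Sessions were on days 21 and 24, and tissue was taken 24 h after the last one. No antibody against PD-L1 was labelled for any of these mice, and whether vehicle mice received microbubbles or a sham session is not given in the sources used here. The tumor comes from a single cell line and each library holds RNA of the tumor, brain, vessel and immune cells of a whole hemisphere.

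Brain capillaries are lined by endothelial cells that are sealed by tight junctions, so that most molecules can enter the brain only through carriers in the cell membrane. ATP-driven pumps of the ABC family return drugs and other lipid-soluble molecules to the blood. Solute carriers bring in glucose, amino acids, lactate, hormones and lipids that the brain needs. Several of these genes are also used outside the endothelium, in astrocytes, choroid plexus, oligodendrocytes and dividing tumor or immune cells, so their level in bulk tissue is not an endothelial level alone.

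The libraries held 59736771 to 86164159 counts, and UMBO 2 stood apart from the others: on the first principal component, which held 78.7% of the variance, it lay at 134 and the other 4 libraries between -68.4 and 17. The transporter genes are therefore described library by library. Levels are CPM, that is counts scaled to a common library size after TMM normalization. The groups were compared across 23592 genes with the quasi-likelihood test in edgeR. No gene of the whole table passed an adjusted p of 0.05 in edgeR (smallest adjusted p 0.497), while 1738 genes, or 7.37%, had an unadjusted p under 0.05 and 37, or 0.157%, passed with DESeq2. The 10 transporter genes are accordingly described by their level in each library, with edgeR's unadjusted and adjusted p.

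Of the 10 transporter genes, 7 had a higher and 3 a lower mean level with UMBO (the sign of Abcb1a, at -0.05, turned with library size alone as the scaling), against 50.9% higher and 49.1% lower among all genes tested. The median log2 fold change was 0.35, against 0.01 over all genes. None of the 10 passed the adjusted threshold with edgeR (0% of all genes), DESeq2 (0.157%) or limma with voom. In edgeR 3 genes (Slc16a1, Slc7a5 and Abcg2) had an unadjusted p under 0.05, all of them higher with UMBO, where 5.30% of all genes were called higher and 2.06% lower. By unadjusted p there were 4 such genes with DESeq2, where 11.2% of all genes had such a p, and 3 with limma, where 5.95% did. In 5 genes (Slc7a5, Slc16a1, Abcg2, Abcb1b and Slc2a1) both UMBO libraries lay above all 3 vehicle libraries, and in none were both below. Among all genes tested, 11.5% were above and 11.4% below in this way. More cells of a type and more RNA per cell cannot be told apart in these bulk libraries.

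**Figure D1:**
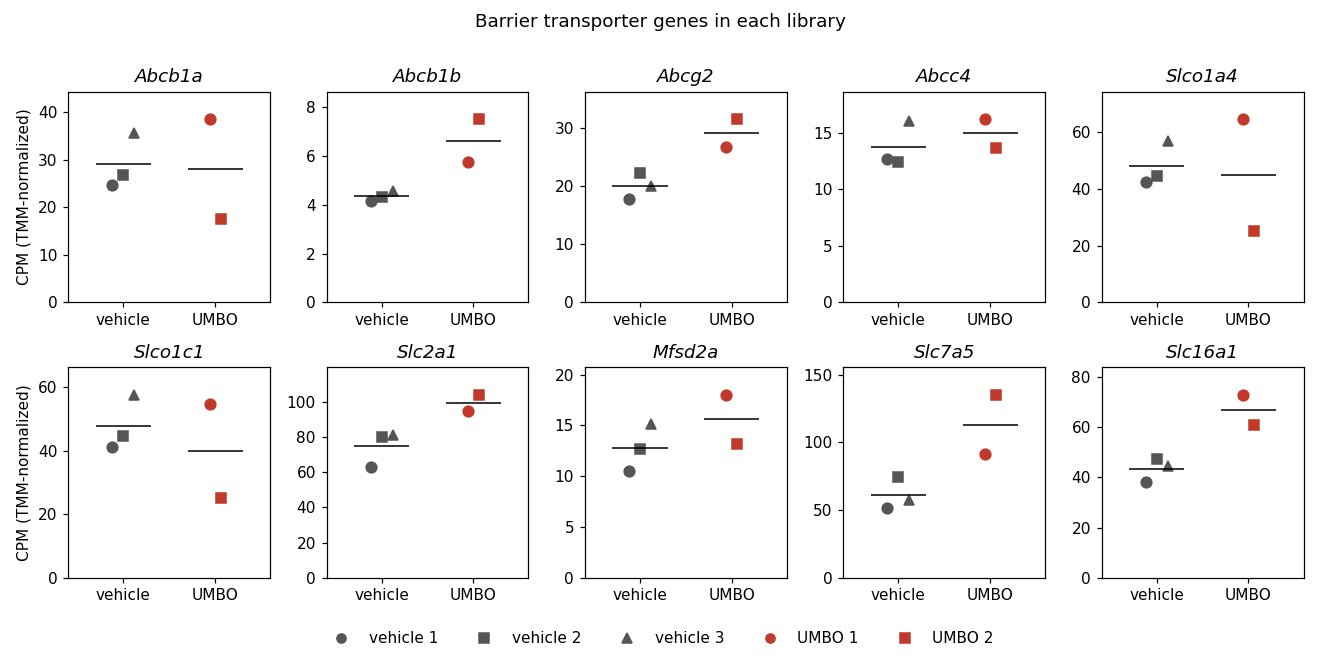
TMM-normalized CPM of the 10 transporter genes in each library, with vehicle in gray, UMBO in red, a marker shape for each replicate number and a horizontal line at the group mean. In Slc7a5, Slc16a1, Abcg2, Abcb1b and Slc2a1 both UMBO libraries lie above all vehicle libraries, whereas in Abcb1a, Slco1a4 and Slco1c1 UMBO 2 lies below every other library.

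The UMBO libraries parted in the other genes. UMBO 1 was above every vehicle library in 9 of the 10 genes, the exception being Slco1c1, where 18.6% of all genes were above in this library. UMBO 2 was above every vehicle library in 5 and below every vehicle library in 3 genes (Abcb1a, Slco1a4 and Slco1c1), where 42.2% of all genes were above and 41.6% below. Relative to the vehicle mean, the genes in UMBO 1 lay between 0.21 (Slco1c1) and 0.75 (Slc16a1) on the log2 scale, a narrow range. In UMBO 2 they spread from -0.92 (Slco1a4) to 1.16 (Slc7a5). Among the vehicle libraries, replicate 1 held the lowest level in 9 of the 10 genes. The share of all genes lowest there was not computed. The median of 16 endothelial markers, described below, was also lowest in replicate 1, at -0.32 from the vehicle mean on the log2 scale. It was 0.19 in replicate 2 and 0.15 in replicate 3.

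**Figure D2:**
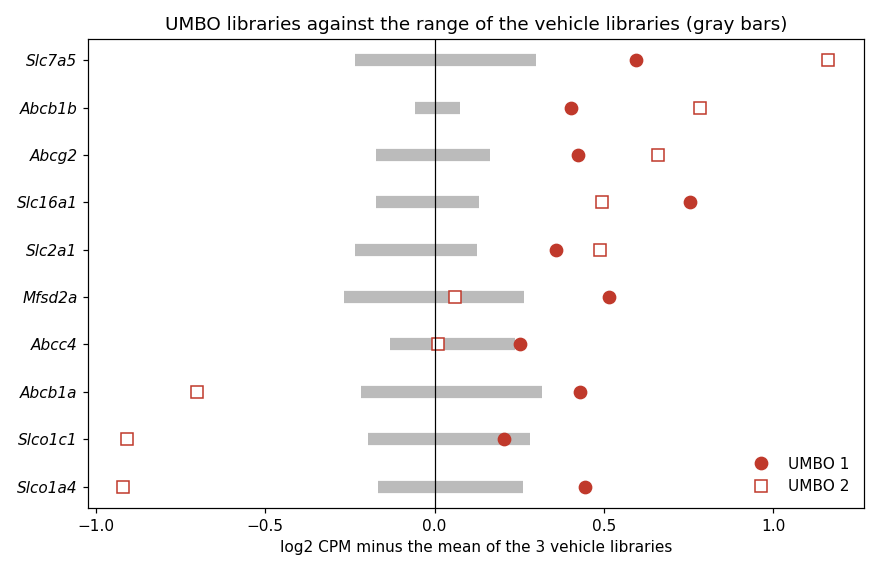
Log2 CPM of each transporter gene in UMBO 1 (filled circles) and UMBO 2 (open squares) minus the mean of the 3 vehicle libraries, whose range is the gray bar. UMBO 1 lies right of 0 for all 10 genes, while UMBO 2 runs from -0.92 for Slco1a4 to 1.16 for Slc7a5.

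The nucleotide sequence just upstream of the gene starts is shown for 3 genes that were higher in both UMBO libraries and 2 that were lower in UMBO 2. They were chosen after their levels were seen, to show how far the 10 genes differ in CG content at their starts. Each is the 200 bases from 250 to 51 before the RefSeq start on GRCm38.p6, read 5′ to 3′ on the strand of the gene, with every CG dinucleotide in capitals.
Slc16a1, chr3:104638414-104638613, plus strand: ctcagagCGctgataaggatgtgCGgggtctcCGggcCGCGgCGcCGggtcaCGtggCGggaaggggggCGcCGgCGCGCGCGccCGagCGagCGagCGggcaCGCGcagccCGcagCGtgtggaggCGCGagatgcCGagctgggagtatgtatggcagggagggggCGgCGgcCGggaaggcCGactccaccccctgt
Slc2a1, chr4:119108495-119108694, plus strand: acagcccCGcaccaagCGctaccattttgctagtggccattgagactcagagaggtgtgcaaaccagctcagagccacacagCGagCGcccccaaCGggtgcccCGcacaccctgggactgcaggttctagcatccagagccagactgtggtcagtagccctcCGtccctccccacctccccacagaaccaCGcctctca
Abcb1b, chr5:8797897-8798096, plus strand: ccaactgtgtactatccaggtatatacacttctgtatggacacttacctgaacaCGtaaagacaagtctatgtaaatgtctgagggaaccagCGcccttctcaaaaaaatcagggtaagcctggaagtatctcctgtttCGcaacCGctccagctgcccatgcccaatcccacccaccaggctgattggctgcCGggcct
Slco1a4, chr6:141856271-141856470, minus strand: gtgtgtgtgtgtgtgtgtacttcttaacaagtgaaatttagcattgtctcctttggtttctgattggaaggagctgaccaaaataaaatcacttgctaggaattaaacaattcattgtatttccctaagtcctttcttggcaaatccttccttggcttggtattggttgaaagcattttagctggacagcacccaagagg
Slco1c1, chr6:141524104-141524303, plus strand: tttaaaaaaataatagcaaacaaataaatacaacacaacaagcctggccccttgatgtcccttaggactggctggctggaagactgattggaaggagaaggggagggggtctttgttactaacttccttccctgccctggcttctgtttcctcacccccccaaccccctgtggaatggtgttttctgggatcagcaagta

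The window of Slc16a1 held 30 CG dinucleotides, that of Slc2a1 8 and that of Abcb1b 5, and those of Slco1a4 and Slco1c1 held 0. The median over 32851 promoter windows of the same length was 4. The table of RefSeq starts had an entry for 9 of the 10 genes, all but Slc7a5. Abcg2 has 3 starts in it, with 1, 10 and 13 CG dinucleotides, Abcc4 has starts with 27 and 2, and Mfsd2a 1 start with 12. The RefSeq start of Abcb1a lies far upstream of its GENCODE start, and the window there held 0. The E-box CACGTG, which reads the same on both strands, occurred in the windows of Slc16a1 and of the first Abcc4 start, and in 4.34% of all windows. The GC box GGGCGG, or CCGCCC on the other strand, occurred in windows of Slc16a1, Abcg2 and Abcc4 and in 24.6% of all windows. These are descriptions of sequence in a short window, with no test of a link to the levels.

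Among the efflux pumps, Abcg2 and Abcb1b were higher in both UMBO libraries. Abcg2 encodes the breast cancer resistance protein, a luminal drug pump (chromosome 6 of GRCm38, 58584523 to 58695676). It was at 17.7, 22.3 and 20.02 CPM in vehicle replicates 1 to 3 and at 26.7 and 31.5 in UMBO replicates 1 and 2. The groups did not overlap, and the log2 fold change was 0.54 (standard error 0.186, unadjusted p = 0.0275 and adjusted p = 0.497 in edgeR). It was 0.42 without UMBO 2. Abcb1b, one of the mouse genes for P-glycoprotein (chromosome 5, 8798147 to 8866315), is the form used less in brain capillaries. It was at 4.17, 4.30 and 4.58 CPM with vehicle and 5.76 and 7.51 with UMBO. The vehicle libraries were close together, both UMBO libraries lay above them, and the log2 fold change was 0.61 (standard error 0.249, unadjusted p = 0.0506 and adjusted p = 0.497 in edgeR). It was 0.40 without UMBO 2.

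Abcb1a, the P-glycoprotein gene of brain capillary endothelium (chromosome 5, 8660077 to 8748575), did not follow Abcb1b. It was at 24.6, 26.7 and 35.7 CPM with vehicle, at 38.6 in UMBO 1 and at 17.6 in UMBO 2. The UMBO libraries lay on either side of the whole vehicle range, 2.19-fold apart, and the log2 fold change of -0.05 (standard error 0.363) had an adjusted p of 0.952 in edgeR. Without UMBO 2 it was 0.41 and without UMBO 1 -0.75. Within a library, log2 Abcb1a minus log2 Abcb1b was 2.55, 2.63 and 2.95 with vehicle, 2.74 in UMBO 1 and 1.23 in UMBO 2. The difference between groups of -0.73 had an exact permutation p of 0.3 (2-sided; 0.45 adjusted over 3 such ratios), and with 10 groupings of 3 and 2 libraries no exact p can fall below 0.1. Abcc4, the gene of a pump for organic anions and nucleotide analogs (chromosome 14, 118482692 to 118706219), was at 12.7, 12.4 and 16.1 CPM with vehicle and 16.2 and 13.7 with UMBO. These ranges overlapped, and its log2 fold change was 0.13 (standard error 0.213) with an adjusted p of 0.755 in edgeR. It was 0.24 without UMBO 2 and -0.0301 without UMBO 1.

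The Abcb1a and Abcb1b values are less certain than the others because the genes are near copies. Their coding sequences were identical at 88% of 3819 aligned bases. Of the 100-base windows of their GENCODE transcripts, 9.23% for Abcb1a and 6.04% for Abcb1b occurred identically in another gene, and how reads with several matches were counted is not given in the sources used here. The longest run shared by both coding sequences is 338 bases and spans exons 13 and 14. Its first 150 bases, all in exon 13, are printed to show a stretch in which a read fits both genes equally, at chr5:8702387-8702536 in Abcb1a and chr5:8824707-8824856 in Abcb1b, on the plus strand.
Abcb1a and Abcb1b: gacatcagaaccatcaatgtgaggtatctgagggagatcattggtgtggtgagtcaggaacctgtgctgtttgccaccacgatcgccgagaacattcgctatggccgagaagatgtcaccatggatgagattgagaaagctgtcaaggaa

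Slco1a4 shared 0.64% of its windows with other genes and the remaining 7 transporter genes 0%. Abcb1a, Abcb1b and Slc2a1 each also share some exonic bases with a gene on the opposite strand (Gm42686, Gm5106 and Gm12868). Whether counting used strand is not given in the sources used here.

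The organic anion carriers, like Abcb1a, were lowest of all libraries in UMBO 2. Slco1a4 encodes Oatp1a4, a carrier of steroid conjugates and drugs on brain capillaries (chromosome 6, 141805440 to 141856199). It was at 42.3, 44.6 and 56.9 CPM with vehicle, at 64.6 in UMBO 1 and at 25.1 in UMBO 2, a 2.57-fold difference between the UMBO mice. Its log2 fold change was -0.09 (standard error 0.401, adjusted p = 0.908 in edgeR), or 0.43 without UMBO 2 and -0.96 without UMBO 1. Slco1c1, the gene of the thyroxine carrier Oatp1c1 of endothelium, astrocytes and choroid plexus (chromosome 6, 141524368 to 141570177), was at 41.4, 44.8 and 57.7 CPM with vehicle. It was at 54.7 in UMBO 1, inside the vehicle range, and at 25.3 in UMBO 2, below it. The log2 fold change was -0.26 (standard error 0.353, adjusted p = 0.692 in edgeR), or 0.19 without UMBO 2 and -0.95 without UMBO 1.

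The nutrient carriers were mostly higher with UMBO. Slc7a5 encodes LAT1, which brings in large neutral amino acids and is also used by dividing cells (chromosome 8, 121881150 to 121907694). It was at 51.3, 74.3 and 57.7 CPM with vehicle and 91.2 and 135 with UMBO. This was the largest difference among the 10 genes, with a log2 fold change of 0.89 (standard error 0.255, unadjusted p = 0.0131 and adjusted p = 0.497 in edgeR), and 0.58 without UMBO 2. Slc16a1 encodes MCT1, a carrier of lactate and ketone bodies found on endothelium, oligodendrocytes and astrocytes (chromosome 3, 104638668 to 104658462). It was at 38.4, 47.3 and 44.5 CPM with vehicle and 73.0 and 60.9 with UMBO. The log2 fold change was 0.62 (standard error 0.178, unadjusted p = 0.0126 and adjusted p = 0.497 in edgeR). Unlike for Slc7a5, UMBO 1 was the higher of the UMBO libraries. The log2 fold change of Slc16a1 was 0.75 without UMBO 2 and 0.46 without UMBO 1. Without vehicle replicate 1 none of the 10 genes had an unadjusted p under 0.05 in edgeR, where 296 of 23137 genes (1.28%) did. Without vehicle replicate 3 there was 1, where 432 of 22953 genes (1.88%) had such a p.

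Slc2a1 encodes GLUT1, the glucose carrier of brain endothelium and, in another glycosylated form, of astrocytes (chromosome 4, 119108711 to 119137983). It was at 62.8, 80.0 and 80.8 CPM with vehicle and at 94.9 and 104 with UMBO. The groups did not overlap, and the log2 fold change of 0.42 (standard error 0.188) had an unadjusted p of 0.0698 and an adjusted p of 0.497 in edgeR. With each library left out in turn it stayed between 0.31 and 0.50. Mfsd2a, the gene of a lysolipid carrier that brings docosahexaenoic acid across the endothelium and holds back vesicle transport (chromosome 4, 122946850 to 122961188), was at 10.5, 12.7 and 15.2 CPM with vehicle. It was at 18.0 in UMBO 1, above them, and at 13.2 in UMBO 2, among them. Its log2 fold change was 0.29 (standard error 0.251, adjusted p = 0.558 in edgeR), from 0.02 without UMBO 1 to 0.50 without UMBO 2.

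Levels were also set in order per length, as CPM per kilobase of exon. In the vehicle libraries (mean ± SD, n = 3) Slc2a1 was highest at 21.3 ± 2.89, followed by Slc7a5 at 16.5 ± 3.20, Slc16a1 at 9.81 ± 1.03 and Slco1c1 at 9.24 ± 1.66. Slco1a4 was at 7.47 ± 1.22, Mfsd2a at 5.67 ± 1.04, Abcb1a at 5.29 ± 1.08, Abcg2 at 2.45 ± 0.284, Abcc4 at 2.15 ± 0.318 and Abcb1b at 0.545 ± 0.0263. The vehicle ranges of neighbors in this order overlapped except at 3 steps, from Slc7a5 to Slc16a1, from Abcb1a to Abcg2 and from Abcc4 to Abcb1b. Within each vehicle library, however, Slc2a1 stood above Slc7a5, and Slco1c1, Slco1a4, Mfsd2a and Abcb1a kept this order. Slc16a1 and Slco1c1 changed places in vehicle replicate 3, as did Abcg2 and Abcc4. In UMBO 2 the order was different: Slc7a5 (36.5 CPM per kilobase) stood above Slc2a1 (29.6), and Abcg2 (3.86) above Abcb1a (3.21). In UMBO 1 Slc2a1 (27.1) stood above Slc7a5 (24.6), and Abcb1a (7.03) above Abcg2 (3.27).

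Transcripts of the partner proteins of LAT1 and MCT1 were counted in the same libraries. LAT1 works as a pair with the heavy chain encoded by Slc3a2, which was at 91.9, 121 and 94.3 CPM with vehicle and 114 and 190 with UMBO. These overlapped (log2 fold change 0.57, standard error 0.276, adjusted p = 0.497 in edgeR). Within a library, log2 Slc7a5 minus log2 Slc3a2 was -0.84, -0.70 and -0.71 with vehicle and -0.32 and -0.49 with UMBO. Both UMBO libraries lay above, by 0.34 on average, with a 2-sided exact permutation p of 0.1, the smallest this design allows (0.3 adjusted over 3 ratios). MCT1 reaches the membrane with basigin, encoded by Bsg, which was at 349, 476 and 377 CPM with vehicle and 501 and 657 with UMBO (log2 fold change 0.53, standard error 0.258, adjusted p = 0.497 in edgeR). The ratio of Slc16a1 to Bsg overlapped between the groups (2-sided exact permutation p = 0.8, also after adjustment).

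The other barrier transporters, a list of 23 genes, were divided. With UMBO 12 were higher and 11 lower, with a median log2 fold change of 0.02, which was 0.18 without UMBO 2 and -0.28 without UMBO 1. In 2 of the 23 the unadjusted p in edgeR was under 0.05, a share near the 7.37% of all genes. Both were higher: Slco2b1, an organic anion carrier (log2 fold change 0.58, standard error 0.20), and Slc38a5, a glutamine and amino acid carrier (1.05, standard error 0.368). Slco2b1 was at 19.2, 26.0 and 26.4 CPM with vehicle and 37.0 and 34.2 with UMBO, and Slc38a5 at 1.93, 2.64 and 2.71 with vehicle and 3.49 and 6.55 with UMBO. Slc29a1, an equilibrative nucleoside carrier, was at 0.50. The lower genes with the smallest p were Slc5a6, a carrier of biotin and pantothenate (-0.30), Slc6a6, the taurine carrier (-0.44), the pumps Abcc5 (-0.54) and Abcc1 (-0.20), and the zinc carrier Slc39a10 (-0.81), none with an unadjusted p under 0.05. Slco2b1, Slc29a1, Slc5a6 and Slc6a6 share exonic bases with another gene.

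Genes of receptor and vesicle transport, the route by which proteins such as antibodies can cross, numbered 14, with 6 higher, 8 lower and a median log2 fold change of -0.12, or -0.20 without UMBO 1 and -0.077 without UMBO 2. Cav1, which forms caveolae, was the 1 gene of the 14 with an unadjusted p under 0.05, a share near the 7.37% of all genes. It was at 11.9, 13.6 and 16.6 CPM with vehicle and 29.7 and 23.4 with UMBO (log2 fold change 0.92, standard error 0.221, unadjusted p = 0.0059 and adjusted p = 0.497 in edgeR). Fcgrt, the neonatal Fc receptor that carries IgG, was at 13.6, 25.4 and 18.1 CPM with vehicle and 26.1 and 33.0 with UMBO. Both UMBO libraries lay above, UMBO 1 by a small margin (log2 fold change 0.63, standard error 0.295, unadjusted p = 0.0751 in edgeR). Cd320, the receptor for transcobalamin (0.53), Ager (0.99) and Cav2 (0.27) were also higher. The transferrin receptor Tfrc (-0.40), the insulin receptor Insr (-0.39), Lrp1 (-0.52), Lepr (-0.51) and Lrp8 (-0.47) were lower, and for Tfrc both UMBO libraries, at 89.9 and 72.3 CPM, lay below the vehicle libraries, at 118, 98.3 and 105. None of these passed the adjusted threshold.

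**Figure D3:**
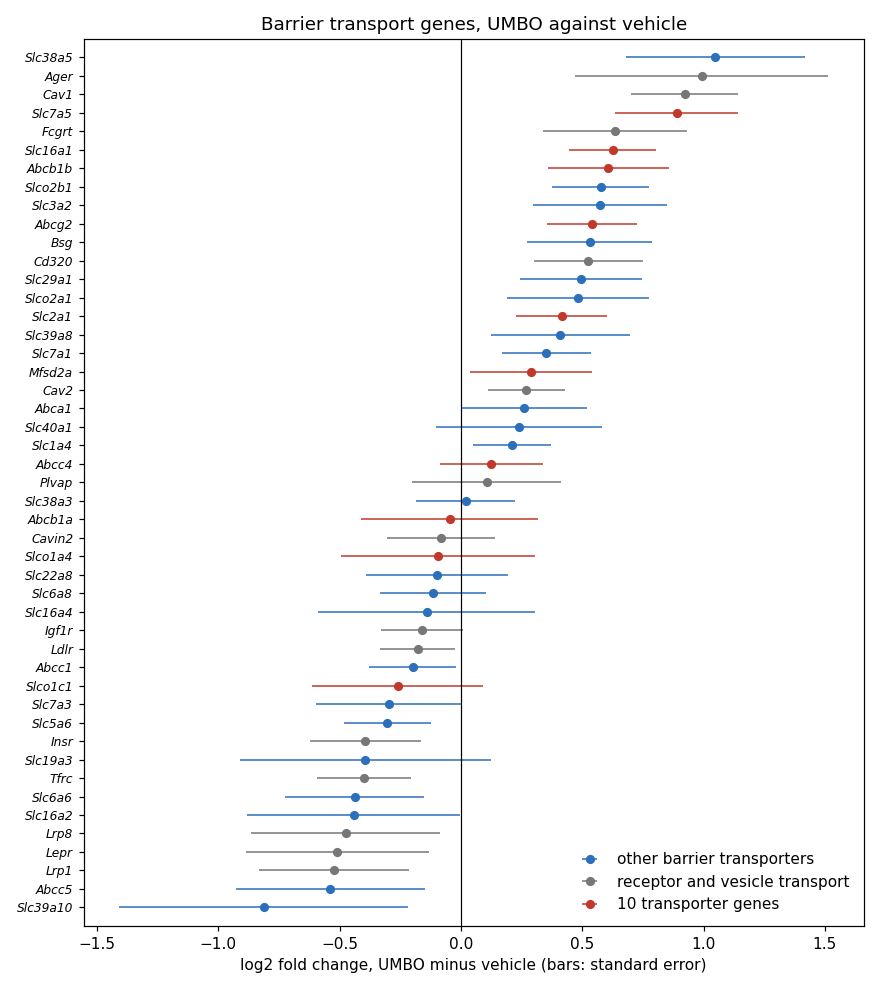
Log2 fold change of UMBO over vehicle with its standard error (bars) from edgeR for the 10 transporter genes (red), 23 other barrier transporters (blue) and 14 receptor and vesicle transport genes (gray). The 10 genes run from -0.26 for Slco1c1 to 0.89 for Slc7a5, and the other lists lie on both sides of 0.

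Markers of the endothelium were also higher in the UMBO libraries. Of 16 endothelial markers, including Flt1, Ptprb and Ly6c1, 15 were higher with UMBO (50.9% of all genes). In edgeR 7 of these had an unadjusted p under 0.05, where 5.30% of all genes were called higher. In 9 of the 16 both UMBO libraries lay above all vehicle libraries (11.5% of all genes), and the median log2 fold change was 0.58. Their summed level was 237 to 332 CPM with vehicle, 409 in UMBO 1 and 478 in UMBO 2. Claudin-5 (Cldn5), the main tight junction protein, was at 15.8, 29.5 and 19.6 CPM with vehicle and 38.9 and 57.1 with UMBO, and Pecam1 at 15.8, 24.9 and 21.5 with vehicle and 29.9 and 44.95 with UMBO. No endothelial marker was at 0 in any library.

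Each transporter gene was therefore also read against the endothelial markers of its own library. Whether other cell types add to these markers in bulk tissue was not tested. The value was the gene's log2 CPM minus the mean log2 CPM of the 16 markers. On this ratio scale the groups overlapped in 8 of the 10 genes, all but Slc2a1 and Slco1c1. The share of all genes without overlap was 22.9% on the CPM scale and was not computed on the ratio scale. Abcg2 was at 0.64, 0.47 and 0.37 with vehicle and 0.43 and 0.52 with UMBO, a difference of -0.02, and Abcb1b differed by 0.03 and Slc16a1 by 0.06. With either UMBO library left out these 3 differences lay between -0.14 and 0.27. For Slc2a1 the difference was -0.14, with the UMBO libraries at 2.26 and 2.25 and the vehicle libraries at 2.47, 2.31 and 2.38. Both UMBO libraries thus lay just below the vehicle libraries (2-sided exact permutation p = 0.2). Slc7a5 had the largest positive difference (0.32), with 2.18, 2.21 and 1.90 for vehicle and 2.20 and 2.63 for UMBO. It was 0.10 without UMBO 2 and 0.53 without UMBO 1. Abcb1a, Slco1a4 and Slco1c1 had differences of -0.70, -0.80 and -0.91, which were -0.06, -0.05 and -0.28 without UMBO 2. For Slco1c1 both UMBO libraries, at 1.46 and 0.21, lay below the vehicle libraries, at 1.87, 1.48 and 1.89, but UMBO 1 by a small margin (2-sided exact permutation p = 0.1, and 0.5 adjusted over the 10 genes). Over the 10 genes the smallest exact p was 0.1 and the smallest adjusted value 0.5. With Cldn5 alone as the endothelial reference all 10 differences were negative, from -0.30 for Slc7a5 to -1.52 for Slco1c1, so the values depend on the markers chosen.

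**Figure D4:**
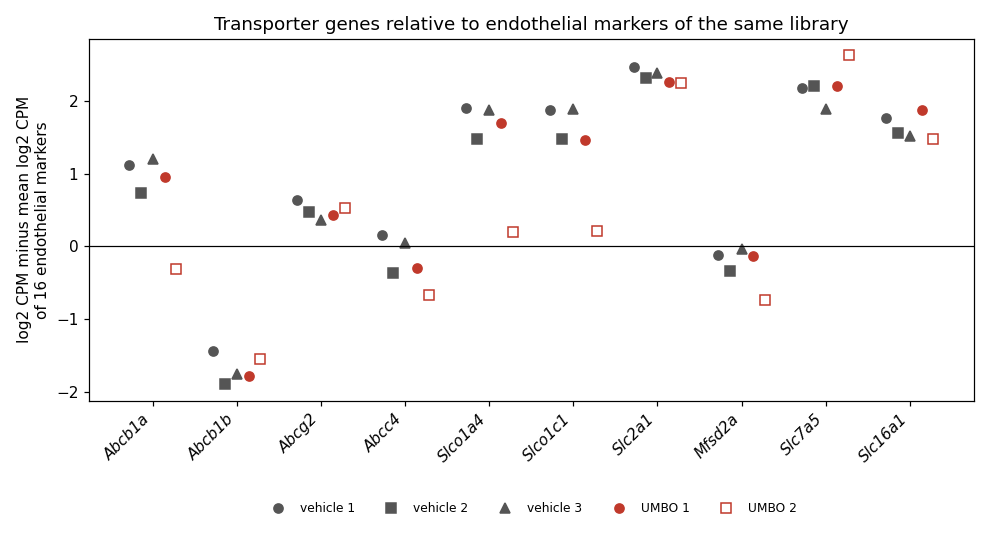
Log2 CPM of each transporter gene minus the mean log2 CPM of 16 endothelial markers in the same library, with vehicle in gray and UMBO in red (UMBO 2 open). Abcg2, Abcb1b and Slc16a1 overlap between the groups, while Abcb1a, Slco1a4 and Slco1c1 are lowest in UMBO 2, at -0.31, 0.20 and 0.21.

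Other cell types differed between the UMBO libraries. In UMBO 2 the 10 proliferation genes, including Top2a, Mki67 and Tpx2, summed to 471 CPM, against 119 in UMBO 1 and 36.5 to 109 with vehicle. All 10 were higher with UMBO and all had an unadjusted p under 0.05 in edgeR, where 5.30% of all genes were called higher. The 7 monocyte and macrophage markers (Lyz2, Plac8, Ly6c2 and others) summed to 389 CPM in UMBO 2, 75.1 in UMBO 1 and 19.2 to 88.6 with vehicle. In 2 of the 7 the unadjusted p in edgeR was under 0.05, both higher (5.30% of all genes). Of the 8 microglia markers, among them Csf1r and Cx3cr1, 6 were higher with such a p (5.30% of all genes). The list summed to 764 and 883 CPM with UMBO and 391 to 568 with vehicle. P2ry12 was an exception, at 37.6, 31.9 and 42.8 CPM with vehicle. It was at 51.7 in UMBO 1, above them, and at 20.8 in UMBO 2, below them. By their sums, neuron, astrocyte and choroid plexus markers went the other way in UMBO 2. The 8 neuron markers (Snap25, Syt1, Map2 and others) summed to 2805 CPM there, 6211 in UMBO 1 and 5804 to 8939 with vehicle. The 8 astrocyte markers (Slc1a2, Aldoc, Gja1 and others) summed to 1934 CPM in UMBO 2, 4382 in UMBO 1 and 3294 to 4757 with vehicle. The 9 choroid plexus markers (Ttr, Kl, Clic6 and others) summed to 512, 883 and 831 to 883 CPM in the same order. Single genes weigh heavily in these sums: in vehicle replicate 1 Slc1a2 held 2739 of 4075 CPM and Ttr 746 of 862. The list medians in UMBO 2 lay at -0.55 (astrocyte) and -1.10 (choroid plexus) from the vehicle mean (log2). Aldh1l1 (astrocyte, 89.1 CPM in UMBO 2) and Aqp1 (choroid plexus, 7.27) were exceptions, above all vehicle libraries in both UMBO libraries.

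The 7 oligodendrocyte markers (Mbp, Mobp and others) summed to 5316 CPM in UMBO 2, 6192 in UMBO 1 and 5826 to 5959 with vehicle. The 10 pericyte and smooth muscle markers (Rgs5, Vtn, Pdgfrb and others) summed to 308 and 261 CPM with UMBO and 214 to 282 with vehicle. The 9 hypoxia genes, with Ldha, Pgk1 and Ndrg1, had 4 higher and 5 lower and a median log2 fold change of -0.12, or 0.086 without UMBO 1. Their sum was 1029 CPM in UMBO 2, 732 in UMBO 1 and 660 to 782 with vehicle. Much of the UMBO 2 sum was Ldha, at 473 CPM there and 183 to 261 with vehicle, while the list's median deviation in UMBO 2 was 0.12 (log2). Of 8 amino acid response genes, with Psat1, Asns and Phgdh, 7 were higher, 1 with an unadjusted p under 0.05 in edgeR (5.30% of all genes). The list's median deviation from the vehicle libraries was 0.13 in UMBO 1 and 1.20 in UMBO 2 (log2). No gene of these lists was at 0 in any library. Abcb1a, Slco1a4 and Slco1c1 were low in UMBO 2, as were the astrocyte, neuron and choroid plexus lists by their medians. Slc7a5 was high there, as were the proliferation and amino acid response genes. Endothelial markers lay on both sides of the vehicle mean in UMBO 2 (list median 0.66, log2). Ptprb was at -0.67 and Tek at -0.43, and Cldn5 was at 1.45 and Pecam1 at 1.14. The part of these cell types in the transporter levels was not tested.

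**Figure D5:**
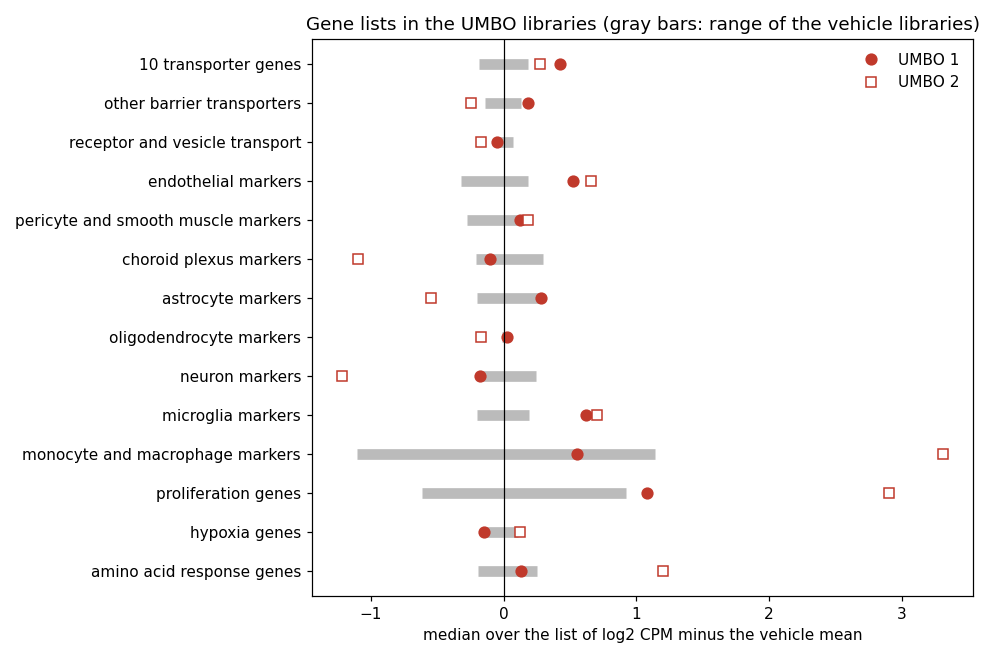
Median over each gene list of log2 CPM minus the vehicle mean in UMBO 1 (filled circles) and UMBO 2 (open squares), with the range of the 3 vehicle libraries in gray. Endothelial and microglia markers lie right of the vehicle range in both UMBO libraries, and proliferation (2.90) and monocyte and macrophage (3.32) lists are highest in UMBO 2.

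The 10 genes did not vary as 1 set. As the root mean square difference of their centered log2 CPM over the 5 libraries, the closest pairs were Abcg2 with Slc2a1 (0.0925), Abcb1a with Slco1a4 (0.0955) and Slco1a4 with Slco1c1 (0.0977), and the farthest pair was Slco1a4 with Slc7a5 (0.851). By the same measure the nearest of 16441 other genes was Col23a1 for Abcb1a, A930007I19Rik for Abcb1b, Islr for Abcg2, Tmem117 for Abcc4 and Gm47976 for Slco1a4. It was Hcn4 for Slco1c1, Wasf2 for Slc2a1, Ednra for Mfsd2a, Lacc1 for Slc7a5 and Scrg1 for Slc16a1. These differences lay between 0.0279 and 0.0758, over 5 libraries that differ in their cell type markers as described above.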

How the data were processed

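Bulk RNA of the right hemisphere was measured in 3 vehicle and 2 UMBO libraries, grouped by the sample titles. The authors mapped reads with STAR 2.7.2a to GRCm38 and deposited raw counts per Ensembl gene; the annotation and strand setting are not given in the sources used here. Symbols of 55480 genes and all coordinates are from GENCODE M21 (GRCm38), and promoter windows from RefSeq (GRCm38.p6).

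Genes were filtered with filterByExpr, normalized by TMM and compared by quasi-likelihood in edgeR 4.0.16 under R 4.3.3. P-values were adjusted by Benjamini-Hochberg over 23592 genes. Log2 CPM used a prior count of 2. Ratios within a library were compared by 2-sided exact permutation over the 10 groupings. Coding sequences were aligned with Biopython 1.88. Alternatives were DESeq2 1.42.0, limma 3.58.1 with voom, other scalings and filters, the replicate number as a block, and each library left out.

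The members and lists were chosen with earlier results of these data known. The named genes were the 10 members, up to 5 genes per direction of the transport lists by smallest p, with Slc3a2, Bsg and Fcgrt, the 3 most abundant genes of each cell type or state list, with Cldn5 and Pecam1, and the nearest gene of each member. Some genes that this rule names are not reported here. Libraries are separate mice per the labels. Depth was 59736771 to 86164159 counts, and p-values rest on the spread between 3 and 2 mice. Libraries were compared in pairs only to look for 1 deposited more than once, and none was found (chi-square per gene at least 58.1).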

Additional observations from a re-analysis of the deposited data

How the results depend on the processing

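No transporter gene passed the adjusted threshold under other scalings, other filters, DESeq2 or limma. In edgeR 0 genes had an adjusted p under 0.05, against 37 with the DESeq2 Wald test, 2337 with the replicate block and 0 to 4543 with 1 library left out, the highest without UMBO replicate 1. Genes with an unadjusted p under 0.05 numbered 1738, against 4100 with no filter on low counts, 2639 with DESeq2, 6134 with the replicate block and 296 to 10165 with 1 library left out (lowest without vehicle replicate 1, highest without UMBO replicate 1). With a single UMBO library left, that mouse is assumed to vary like the vehicle mice. Of the 10 transporter genes 3 had such a p, against 5 with library size only (8.04% of all genes), 5 with the replicate block (26.0%), and 0 (without vehicle replicate 1, 1.28%) to 6 (without UMBO replicate 1, 41.0%) with 1 library left out. Without UMBO replicate 1, Slc7a5 (adjusted p 0.039), Slco1a4 (0.0425) and Slco1c1 (0.046) passed in edgeR. The cause was not tested for these changes.

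The log2 fold change of Abcb1a turned to 0.0405 with library size only and 0.0266 with the replicate block. With 1 library left out it ranged from -0.75 to 0.41, that of Slco1a4 from -0.96 to 0.43, of Slco1c1 from -0.95 to 0.19 and of Abcc4 from -0.0301 to 0.25. The other 6 genes stayed above 0 under the alternatives run. Library size only moved the median of all genes from 0.01 to 0.13; relative to it, the median of the 10 genes was 0.33. That median, 0.35, was 0.23 without UMBO replicate 1 and 0.24 without vehicle replicate 1. With the replicate block Slc7a5 passed (adjusted p 0.014 in edgeR). In that fit vehicle replicate 3 has no partner, so the comparison rests on replicates 1 and 2, with very few residual degrees of freedom. Its p-values and counts are therefore not on a par with those of the main fit. The labels tie no replicate number to a litter, batch or day. Same-numbered libraries correlated in their deviations (0.453 and 0.76), but with 2 UMBO libraries these mirror each other, so the numbers establish no pairs. The files hold 1 count column each, so no other strand column was run.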
